A study of Mus musculus with 6 samples.

Results

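Mitochondria are kept in working order by machinery that is encoded almost entirely in the nucleus. Mitofusins and Opa1 fuse the outer and inner membranes, and Dnm1l, recruited by outer-membrane adaptors, divides them. Damaged mitochondria are marked for autophagy by the kinase Pink1 or by receptors such as Bnip3 and Fundc1, while translocases import precursor proteins and inner-membrane and matrix proteases remove misfolded ones. In macrophages, lipopolysaccharide (LPS), the outer-membrane glycolipid of Gram-negative bacteria, reshapes mitochondrial metabolism, and mitochondrial damage is known to feed inflammasome activation.

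The 45 genes described here cover these functions and were chosen by name, all 45 being present among the 16266 genes of the deposited tables. They comprise 5 genes of fusion and inner-membrane processing, 5 of fission, 4 of mitophagy, 5 prohibitin and cristae genes, 7 of protein import, 6 proteases, 8 of biogenesis and mitochondrial DNA maintenance, and 5 of calcium uptake and outer-membrane channels. RNA came from cultured mouse macrophages raised from bone marrow, either wild type (WT, 3 libraries) or Capns1 knockout (KO, 3 libraries). Every library, KO and WT, was collected after 24 h of LPS, so no library shows these cells before LPS. The series title speaks of a myeloid-specific deletion. The sources used here do not name the driver of that deletion, the age of the animals, or whether replicates came from different animals or dishes. The p-values therefore measure the spread of these samples alone, and that spread may be technical. The study's title ties loss of Capns1 to mitochondrial function, and the comparison asks whether transcripts of the maintenance machinery differed between KO and WT macrophages.

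Capns1, the regulatory subunit shared by calpains 1 and 2, checked the labels. It had 17055 to 21331 counts in the WT libraries and 298 to 370 in the KO libraries, a log2 fold change (KO minus WT) of -5.73 ± 0.12 SE. The genotype labels of the 3 KO samples carry different Capns numbers, and all 3 libraries showed the loss. Total counts were 32631163 to 40913819 per library. The second principal component (15.9% of variance) set WT replicate 3, at -23.1, away from WT replicates 1 and 2, at 8.17 and 12.5. It likewise set KO replicate 2, at 25.5, away from KO replicates 1 and 3, at -12.6 and -10.4. All 10 macrophage markers were measured, summing to 37490 to 44923 CPM (counts scaled to a common library total) in WT and 36297 to 41510 in KO. Of these, C1qa was called higher and Cd14 lower in KO. Of 8 tested fibroblast and marrow stroma markers, 5 were called higher in KO, with a summed level over the 9 markers of 161 to 196 CPM in WT and 345 to 417 in KO and no marker at 0 in every library. Of 9 granulocyte markers, 2 were called higher and 2 lower, and dendritic cell markers summed to at most 1.01 CPM. Lymphocyte markers summed to 1.82 to 2.40 CPM in WT and 0.349 to 1.07 in KO, and the only one tested, Nkg7, was called lower (log2 fold change -2.11, adjusted p = 0.00543). The part of other cells in the results below was not tested, and in bulk RNA fewer cells of a type and less RNA per cell cannot be told apart.

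Few transcripts of mitochondrial maintenance passed the test between KO and WT. Of the 45 genes, 3 were called higher in KO and 0 lower (edgeR quasi-likelihood test, Benjamini-Hochberg adjusted p under 0.05 over 12219 genes), whereas 14.6% of all tested genes were called, 8.44% higher and 6.21% lower. The 3 were Tomm40, the pore of the outer-membrane import channel, Phb2, a prohibitin of the inner membrane, and Pprc1, a coactivator of the PGC-1 family. At an unadjusted p under 0.05, 8 of the 45 genes differed, 6 higher and 2 lower, beside 28.2% of all tested genes (14.7% higher and 13.5% lower). With limma-voom 3 were called, all higher, beside 14.5% of all genes (8.35% higher and 6.17% lower). DESeq2 called 5, 4 higher and 1 lower, and of all genes it called 18.3%, 10.5% higher and 7.87% lower. The median log2 fold change (KO minus WT) was -0.01 over the 45 genes and -0.01 over all tested genes. Its range over the 45 was -0.44 to 0.64, so that no gene reached a 2-fold difference.

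For the 42 genes not called, the 95% interval of each log2 fold change (for each gene alone, not adjusted) lay within a 2-fold change in either direction. For 38 of the 42 it lay within a 1.5-fold change, the exceptions being Pink1, Chchd6, Ppargc1b and Mcu. Over all 45 genes, called ones included, the shares within these bounds were 97.8% and 86.7%. Among all 12219 tested genes, called ones included, they were 79.3% and 55.5%. The 45 genes were also better counted than most, with a median of 44.5 CPM against 19.8 over all tested genes and at least 201 counts in every library. For 13 of the 45 genes the WT and KO ranges were separate, 8 with KO higher and 5 with KO lower, against 33.6% of all tested genes (18.2% with KO higher and 15.5% with KO lower).

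**Figure D1:**
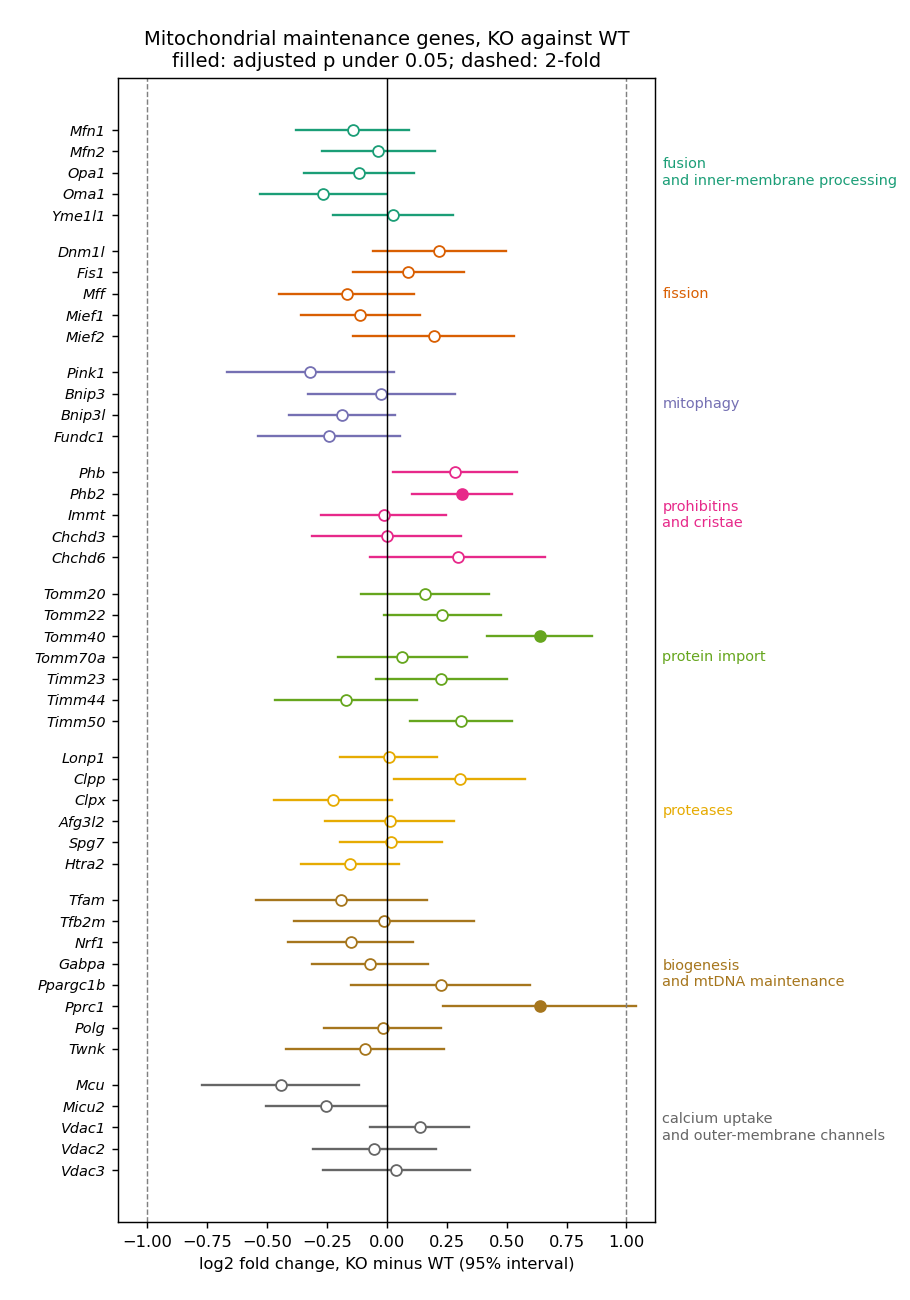
Log2 fold change of each of the 45 genes (KO minus WT, points) with its 95% interval (lines), in blocks by role; filled points have an adjusted p under 0.05 and dashed lines mark a 2-fold difference. Most intervals cross 0, and the filled points of Tomm40 (0.64), Pprc1 (0.64) and Phb2 (0.31) lie to the right.

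Removing WT replicate 3 and KO replicate 2, the libraries that stood apart, left 9 of the 45 genes called, 4 higher and 5 lower, beside 26.0% of all genes called in that subset (13.7% higher and 12.3% lower). The additional calls were Ppargc1b (0.49) as higher and Mcu (-0.63), Micu2 (-0.41), Fundc1 (-0.40), Timm44 (-0.39) and Mff (-0.38) as lower. The libraries left in it are also separated by group along the second principal component, and that separation cannot be told apart from genotype. With a gene length trend removed from each library, all calls turned from 1031 higher and 759 lower to 979 higher and 1407 lower. Of the 45 genes 4 were called, Tomm40 and Pprc1 as higher and Mcu and Micu2 as lower. The median log2 fold change in that fit was -0.08 over all tested genes and -0.07 over the 45, against -0.01 for both in the main fit. Values under this setting are therefore lower for genes in general, and the part of that shift in single genes was not tested.

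Among the import genes, which carry precursors through the outer membrane (TOM) and inner membrane (TIM) translocases, Tomm40 moved and the others did not pass the test. Tomm40 (chromosome 7, 19701313 to 19715442, GRCm38) had 34.8, 30.8 and 34.8 FPKM (counts scaled by gene length and by the library total) in WT replicates 1 to 3 and 53.0, 52.9 and 52.7 in the KO replicates. The KO libraries lay close together and well above every WT library. The log2 fold change was 0.64 ± 0.10 SE (adjusted p = 0.00145), and Tomm40 was called under all 17 alternative settings, with a log2 fold change of 0.53 to 0.68. Of its exon bases, 15.4% overlap Gm20512 on the opposite strand, and since the sources used here do not give the strand setting of counting, reads of the overlap cannot be assigned. Timm50, the TIM receptor that takes over precursors from the TOM complex, had 40.8, 40.7 and 40.4 FPKM in WT and 48.5, 53.1 and 51.6 in KO. These groups did not overlap, and the log2 fold change was 0.31 ± 0.10 SE with an adjusted p of 0.0548, just outside the threshold. It was called under 7 of 17 alternatives, among them DESeq2 (adjusted p = 0.0209), and under none of the 6 that left out 1 library. With a gene length trend removed, the log2 fold change of Timm50 was 0.17 (adjusted p = 0.240). The receptor Tomm22 had 65.2 to 80.0 FPKM in WT and 84.9 to 93.9 in KO (log2 fold change 0.23, adjusted p = 0.196). Its log2 fold change was 0.08 with a gene length trend removed. Tomm20, Tomm70a, Timm23 and Timm44 had log2 fold changes of -0.17 to 0.23 with overlapping groups. Timm23 shares 63.2% of its 32-base sequence words with transcripts of other genes, so its level is uncertain.

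Prohibitins form ring-shaped scaffolds of the inner membrane that hold proteases and cristae in place. Phb2 (chromosome 6, 124712289 to 124716945) had 95.1, 92.9 and 99.0 FPKM in WT and 121.5, 124.0 and 116.5 in KO. Each KO library exceeded each WT library, by 0.31 ± 0.10 SE on the log2 scale. Its adjusted p of 0.0477 was barely under the threshold, and the call was lost when any 1 of the 6 libraries was left out (adjusted p of up to 0.162), with no low-count filter, and with a gene length trend removed (0.18, adjusted p = 0.212). Its partner Phb had 45.7, 45.3 and 37.4 FPKM in WT and 50.1, 58.4 and 49.98 in KO, again without overlap and 0.28 ± 0.12 SE higher on the log2 scale (adjusted p = 0.140). Phb shares 34.1% of its sequence words with other transcripts. The cristae organisers of the MICOS complex did not pass. Immt, its core subunit, had 20.2 ± 2.01 FPKM in WT and 20.3 ± 2.20 in KO (SD, n = 3 each), Chchd3 had 15.6 ± 1.84 and 15.7 ± 2.68, and Chchd6 had 9.82 ± 2.16 and 12.2 ± 0.980.

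Biogenesis genes include the transcription factors Nrf1 and Gabpa, which drive nuclear genes of respiration, their coactivators Ppargc1b and Pprc1, and the proteins that copy and transcribe mitochondrial DNA. Pprc1 (chromosome 19, 46056526 to 46072909) had 4.33, 3.03 and 5.19 FPKM in WT and 7.52, 5.39 and 6.98 in KO. The lowest KO library stood only slightly above the highest WT library. The log2 fold change was 0.64 ± 0.18 SE (adjusted p = 0.0379). The call was lost in the 3 tests on FPKM values. It was also lost on leaving out either of WT replicates 1 and 2 or either of KO replicates 1 and 3, where the adjusted p reached 0.119. By contrast, without WT replicate 3 and KO replicate 2 the log2 fold change was 0.94. Ppargc1b had 1.68, 1.38 and 1.92 FPKM in WT and 2.40, 1.52 and 2.01 in KO, with overlapping groups (log2 fold change 0.22, adjusted p = 0.435). Nrf1, the gene of lowest mean FPKM in WT among the 45, had 1.596, 1.73 and 1.44 FPKM in WT and 1.38, 1.56 and 1.41 in KO. Its log2 fold change was -0.15 (adjusted p = 0.454). By mean CPM in WT it was not the lowest, at 23.2 against 7.07 for Tfb2m. The mitochondrial transcription factor Tfam (-0.19), its partner Tfb2m (-0.01), Gabpa (-0.07), the DNA polymerase Polg (-0.02) and the helicase Twnk (-0.09) all had overlapping groups and adjusted p of 0.499 or more. Tfb2m shares 36.1% of its words with other transcripts.

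**Figure D2:**
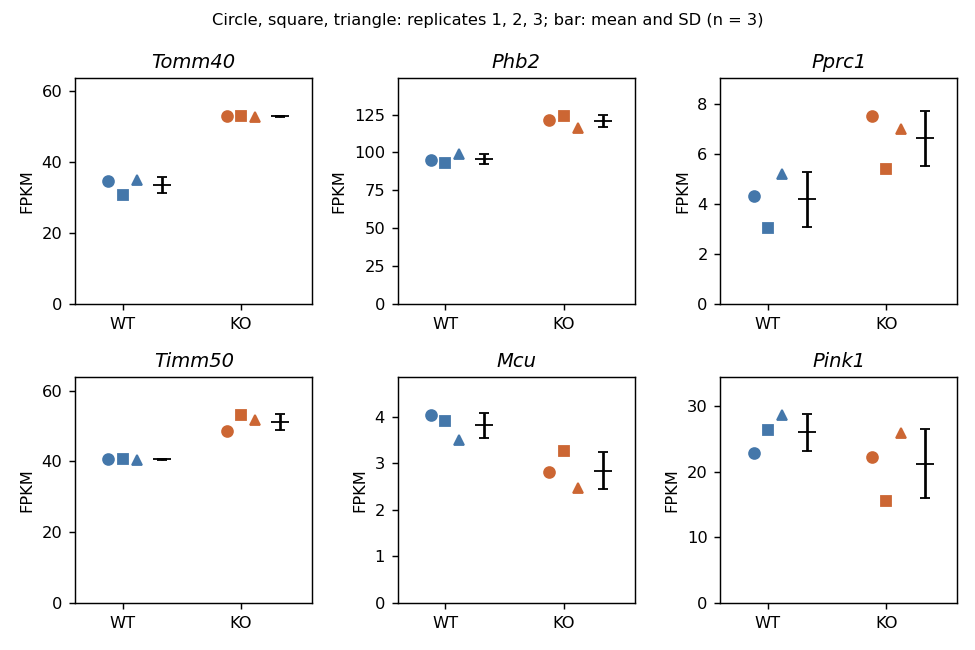
FPKM (vertical axes, from 0) of Tomm40, Phb2, Pprc1, Timm50, Mcu and Pink1 in each WT and KO library (points; circle, square and triangle for replicates 1, 2 and 3), with mean and SD beside them (n = 3). Groups do not overlap except for Pink1, whose KO replicate 2 lies lowest at 15.5.

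Promoter sequences of the 3 called genes are shown because Nrf1 and Gabpa, which are themselves among the 45 genes, act through short motifs near start sites. Windows from RefSeq (GRCm38.p6) hold 250 bases before and 50 after the start of transcription and were found for 39 of the 45 genes. Capitals mark matches, on either strand, of CCGGAAGT (GABPA and other ETS factors), CCAAT (NF-Y) and the ZNF143 motif. The NRF1 motif was searched as well and is in none of the 3 windows. The NF-Y and ZNF143 motifs were chosen after these sequences had been read.
Phb2, chr6:124712039-124712338, plus strand: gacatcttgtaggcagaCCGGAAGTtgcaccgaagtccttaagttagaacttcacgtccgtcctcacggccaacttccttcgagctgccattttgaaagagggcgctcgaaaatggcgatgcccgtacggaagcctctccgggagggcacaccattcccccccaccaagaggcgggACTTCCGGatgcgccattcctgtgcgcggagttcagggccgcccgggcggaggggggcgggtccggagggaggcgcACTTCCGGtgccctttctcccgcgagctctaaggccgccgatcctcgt
Tomm40, chr7:19715380-19715679, minus strand: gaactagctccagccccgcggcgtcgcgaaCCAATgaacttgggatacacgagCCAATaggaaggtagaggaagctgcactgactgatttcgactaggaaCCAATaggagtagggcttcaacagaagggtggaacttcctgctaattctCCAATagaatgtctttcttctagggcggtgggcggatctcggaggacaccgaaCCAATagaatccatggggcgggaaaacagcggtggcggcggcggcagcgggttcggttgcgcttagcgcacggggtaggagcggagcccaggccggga
Pprc1, chr19:46056289-46056588, plus strand: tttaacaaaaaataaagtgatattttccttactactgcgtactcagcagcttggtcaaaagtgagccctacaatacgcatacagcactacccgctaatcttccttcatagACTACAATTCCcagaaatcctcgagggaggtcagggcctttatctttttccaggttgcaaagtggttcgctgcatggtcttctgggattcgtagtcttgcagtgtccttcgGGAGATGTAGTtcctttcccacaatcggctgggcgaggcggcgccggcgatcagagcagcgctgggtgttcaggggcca

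The 3 windows held different motifs and shared none of those searched. The Phb2 window held 3 GABPA matches, a number reached by 0.0185% of 27025 genes with a window and 0.0509% of the 9831 tested genes among them. The Tomm40 window held 5 CCAAT matches, a number reached by 0.311% of all genes and 0.570% of tested genes. The Pprc1 window held 2 ZNF143 matches, reached by 0.322% and 0.793%. Because the NF-Y and ZNF143 motifs were picked from these windows, their shares cannot show that the Tomm40 and Pprc1 windows are unusual. The GABPA share is the smallest of several read over these windows, and whether the Phb2 window is unusual was not tested. Over the 39 genes with a window, 9 held a GABPA match (4.31% of all genes, 9.27% of tested genes) and 8 an NRF1 match (5.19% and 11.6%). An NF-Y match was in 20 of the 39 (41.1% and 43.0%) and a ZNF143 match in 6 (2.27% and 5.02%). Those with an NRF1 match were Bnip3, Immt, Oma1, Opa1, Phb, Pink1, Spg7 and Tomm20. None of these 8 was called in edgeR, against 14.6% of all tested genes. Whether a match goes with a call was not tested. A match describes the letters only and is not evidence of binding.

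Fusion genes showed no called change in edgeR (0 of 5, also 0 in DESeq2 and limma-voom), against 14.6%, 18.3% and 14.5% of all tested genes. Of the 5, 1 had an unadjusted p under 0.05, against 28.2% of all tested genes. The mitofusin Mfn2 was the more abundant of the pair, at 16.1 ± 1.70 FPKM in WT and 16.0 ± 0.290 in KO, and Mfn1 stood at 4.36 ± 0.145 and 4.01 ± 0.227 (SD, n = 3 each). Opa1 had 5.81, 5.93 and 6.59 FPKM in WT and 5.90, 5.20 and 6.10 in KO, so the groups overlapped (log2 fold change -0.12, adjusted p = 0.526). Oma1, the stress-activated protease that cleaves Opa1, had 3.36, 3.45 and 3.25 FPKM in WT and 2.97, 2.99 and 2.52 in KO. All KO libraries lay below the WT libraries (log2 fold change -0.27 ± 0.12 SE, adjusted p = 0.173). Yme1l1, the second protease that processes Opa1, had a log2 fold change of 0.02 (adjusted p = 0.921).

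Of the 5 fission genes, 0 were called in edgeR, DESeq2 or limma-voom, against 14.6%, 18.3% and 14.5% of all tested genes. An unadjusted p under 0.05 was found for 0, against 28.2% of all tested genes. Dnm1l, the dynamin-related GTPase that constricts mitochondria, had 8.29, 6.17 and 6.61 FPKM in WT and 8.13, 8.48 and 8.26 in KO. WT replicate 1 lay within the KO range, and the log2 fold change was 0.22 ± 0.13 SE (adjusted p = 0.292). Fis1, an outer-membrane adaptor, was the most abundant of the 45 genes per length in WT, with a mean that differed from that of Vdac2 by less than their SD. It had 166.2, 167.5 and 147.7 FPKM in WT and 156.1, 184.0 and 179.8 in KO (log2 fold change 0.09, adjusted p = 0.637). Its sign turned under 2 alternatives. The adaptors Mff (-0.17), Mief1 (-0.11) and Mief2 (0.20) overlapped between groups.

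All 4 mitophagy genes had log2 fold changes below 0, from -0.32 to -0.02, as did 6313 of all 12219 tested genes. Of the 4, 0 were called in edgeR, DESeq2 or limma-voom, against 14.6%, 18.3% and 14.5% of all tested genes. An unadjusted p under 0.05 was found for 0, against 28.2% of all tested genes. Pink1, the kinase that accumulates on depolarised mitochondria, had 22.9, 26.4 and 28.6 FPKM in WT and 22.3, 15.5 and 25.9 in KO. Most of its difference came from KO replicate 2, without which the log2 fold change was -0.14, against -0.32 ± 0.16 SE with all libraries (adjusted p = 0.218). The receptor Bnip3l had 18.8 to 22.6 FPKM in WT and 17.8 to 18.7 in KO, without overlap (log2 fold change -0.19, adjusted p = 0.259). The receptor Fundc1 had 5.37 to 7.06 FPKM in WT and 4.94 to 5.91 in KO (-0.24, adjusted p = 0.280). Bnip3, at 11.6 FPKM in both groups, shares 56.5% of its sequence words with other transcripts, and Bnip3l 23.6%, so their levels are uncertain.

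The proteases likewise had 0 of 6 genes called in edgeR, DESeq2 or limma-voom, against 14.6%, 18.3% and 14.5% of all tested genes. Of the 6, 1 had an unadjusted p under 0.05, against 28.2% of all tested genes. The AAA+ protease Lonp1 of the matrix had 21.1 ± 0.682 FPKM in WT and 21.6 ± 0.653 in KO (SD, n = 3 each), an interval of -0.19 to 0.21 on the log2 scale. Clpp, the peptidase chamber of the ClpXP protease, had 17.4, 18.3 and 15.4 FPKM in WT and 19.4, 23.7 and 20.8 in KO. The groups did not overlap (0.30 ± 0.12 SE, adjusted p = 0.134). With a gene length trend removed, the log2 fold change of Clpp was 0.17 (adjusted p = 0.290). Clpx, the unfoldase that feeds Clpp, lay the other way, at 6.44 to 7.33 FPKM in WT and 5.70 to 6.0 in KO. It was also without overlap (-0.22 ± 0.11 SE, adjusted p = 0.224). The difference between the pair was not tested. The m-AAA protease subunits Afg3l2 and Spg7 had log2 fold changes of 0.01 and 0.02. Htra2, a protease of the intermembrane space, had 53.3 to 55.4 FPKM in WT and 48.7 to 50.4 in KO (-0.15, adjusted p = 0.320), and 34.0% of its exon bases overlap Aup1 and Loxl3 on the opposite strand.

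Calcium enters through outer-membrane VDAC channels and then the uniporter pore Mcu, gated by Micu proteins. None of the 5 genes was called in edgeR or limma-voom, against 14.6% and 14.5% of all tested genes. DESeq2 called 1, against 18.3% of all tested genes. Of the 5, 1 had an unadjusted p under 0.05, against 28.2% of all tested genes. That gene was Mcu (chromosome 10, 59446984 to 59617409), with 4.03, 3.90 and 3.51 FPKM in WT and 2.81, 3.25 and 2.46 in KO. Every KO library lay below every WT library, and the log2 fold change was -0.44 ± 0.15 SE (adjusted p = 0.0708; interval -0.77 to -0.12). DESeq2 gave an adjusted p of 0.0498, and 5 of 17 alternatives called it as lower. Micu2 had 17.5 to 21.3 FPKM in WT and 15.6 to 18.2 in KO, with overlap (-0.25, adjusted p = 0.179). The channels were far more abundant per length. Vdac1, separate between groups but not called (adjusted p = 0.382), had 79.6 ± 1.94 FPKM in WT and 88.9 ± 4.23 in KO, Vdac2 159 ± 11.7 and 155 ± 19.2, and Vdac3 61.1 ± 11.6 and 63.7 ± 5.35 (SD, n = 3 each).

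**Figure D3:**
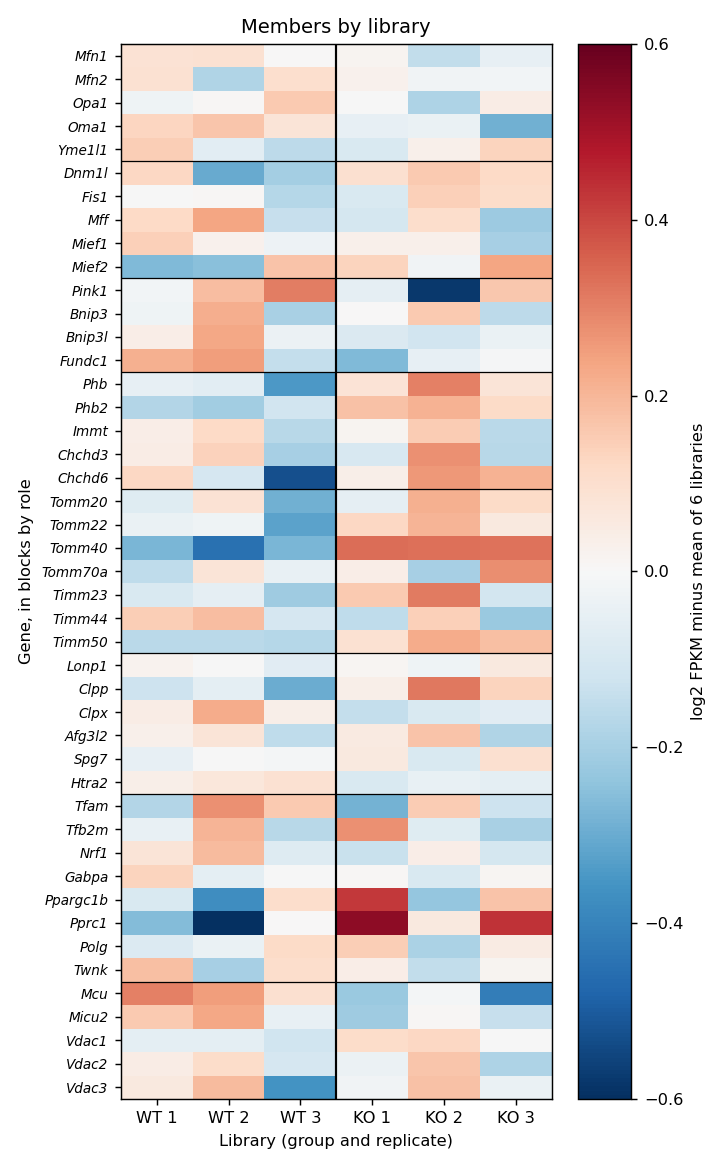
Log2 FPKM of each of the 45 genes (rows, in blocks by role) in each library (columns), minus the gene's mean over the 6 libraries; red is above and blue below that mean. Tomm40 separates the groups evenly, while WT replicate 3 is the lowest WT library for 29 genes and KO replicate 2 the highest KO library for 26.

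Within groups, the libraries that stood apart often held the lowest or highest value. WT replicate 3 was the lowest of the WT libraries for 29 of the 45 genes, against 39.1% of all tested genes, and KO replicate 2 the highest of the KO libraries for 26, against 34.9%. The median coefficient of variation of the 45 genes was 9.77% in WT and 8.93% in KO, close to the 11.5% and 11.8% of all tested genes.

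A wider list of 119 other genes of the same processes was read in the same fit. Of these, 116 were in the tables (Calcoco2, Fgf21 and Ppargc1a were not analysed here) and 114 passed the count filter. In KO 9 were called higher and 3 lower, 10.5% of the 114 against 14.6% of all tested genes, with a median log2 fold change of 0.07. Hspd1, the mitochondrial chaperonin, had 21.0, 22.6 and 20.5 FPKM in WT and 35.3, 35.9 and 33.1 in KO (0.68 ± 0.10 SE, adjusted p = 8.89e-04). Its cochaperonin Hspe1 had 58.4, 63.4 and 47.1 FPKM in WT and 80.8, 107.1 and 90.1 in KO (0.70 ± 0.14 SE, adjusted p = 0.00666). KO lay above WT in every library for both, and each was called under all 17 alternatives. These genes share 52.4% and 29.9% of their sequence words with other transcripts, among them annotated pseudogenes of each. Of 27 tested import genes, 2 rose and 1 fell (11.1% called). Dnajc15, a co-chaperone of the import motor, stood at 27.1 ± 3.79 FPKM in WT and 46.8 ± 2.77 in KO, and Timm13, a small intermembrane chaperone, at 61.4 ± 2.06 and 87.5 ± 5.74 (SD, n = 3 each). Oxa1l, the inner-membrane insertase, fell from 34.7 ± 1.63 to 23.6 ± 1.59 FPKM (SD, n = 3 each; -0.58 ± 0.10 SE, adjusted p = 0.00253). All 3 were called under all 17 alternatives. Atad3a, an inner-membrane ATPase linked to cristae, rose (0.51, adjusted p = 0.0137; 0.0674 without WT replicate 1) and shares 14.3% of its words.

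In the other groups of the wider list the shares called lay on both sides of the 14.6% of all tested genes. Of 6 tested fusion genes 1 was called (16.7%), and of 8 tested fission genes 1 (12.5%). Miga2, a fusion factor of the outer membrane (0.46, adjusted p = 0.0227), and the formin Inf2, which assists fission (0.59, adjusted p = 0.0332), rose, and each kept its call in 2 of the 6 fits with 1 library left out. The calls of both were lost on leaving out WT replicate 1 or 2, or KO replicate 1 or 3. Of 22 tested biogenesis and DNA maintenance genes, only the thymidine kinase Tk2 was called (4.55%), as lower (-0.41, adjusted p = 0.0184). It lost that call on leaving out WT replicate 2 or 3, or KO replicate 1 or 3 (adjusted p of up to 0.0798). In the calcium group 0 of 8 were called in edgeR or DESeq2 and 0 had an unadjusted p under 0.05, against 28.2% of all tested genes. Of 9 tested stress-response genes 2 rose (22.2%). The secreted factor Gdf15 had 28, 70 and 56 counts in WT and 185, 227 and 251 in KO (2.24 ± 0.27 SE, adjusted p = 2.97e-04), and the asparagine synthetase Asns had 3.77, 5.31 and 4.69 FPKM in WT and 8.29, 8.34 and 7.77 in KO (0.80 ± 0.14 SE, adjusted p = 0.00313). Both were called under all 17 alternatives, Gdf15 at 1.37 to 2.51 on the log2 scale.

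**Figure D4:**
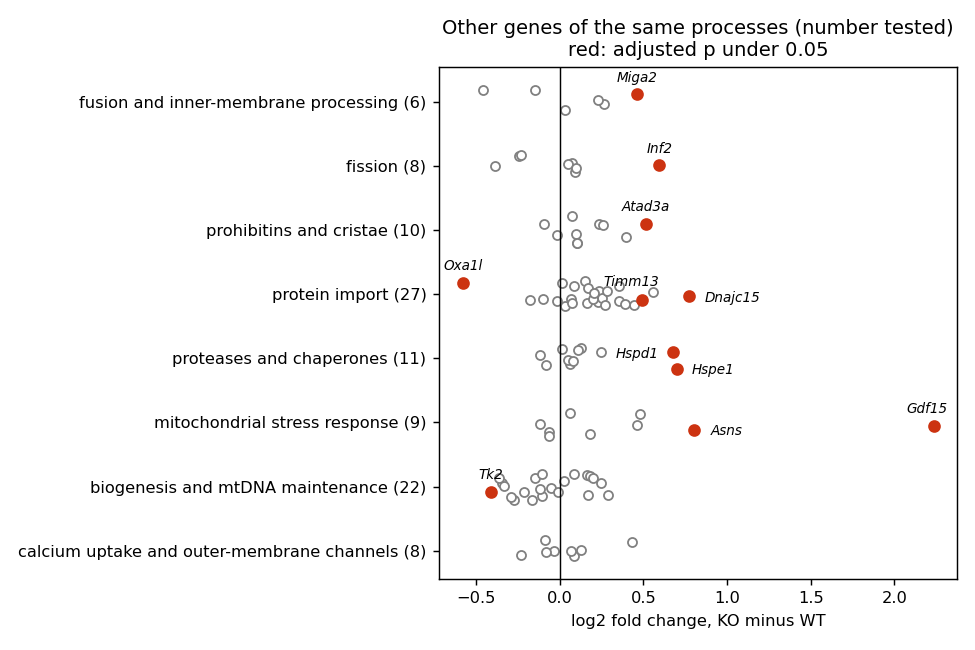
Log2 fold change (KO minus WT, horizontal axis) of tested genes of the wider list, in rows by process with the number tested in brackets and without its mitophagy genes; each point is 1 gene, and red named points have an adjusted p under 0.05. Gdf15 (2.24) lies farthest to the right, and Oxa1l (-0.58) and Tk2 (-0.41) are the red points to the left of 0.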

How the data were processed

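The authors deposited read counts per gene and FPKM values for 16266 genes in 6 libraries. Tools named in the submitters' processing notes are fastp, HISAT2 and HTSeq, with mm10 as the build, and libraries were strand-specific per the labels' protocols. The sources used here give no tool versions and no strand setting for counting. Each deposited FPKM was the count over 1 length per gene and the column total, to within 1% in 99.995% of entries with 10 or more counts.

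The main test was the quasi-likelihood F test of edgeR 4.0.16 (R 4.3.3) on the deposited counts, after filterByExpr and TMM scaling, with p-values adjusted over 12219 genes. SE is the log2 fold change divided by the square root of F. Alternatives used limma 3.58.1, DESeq2 1.42.0, other scalings and filters, FPKM with pseudocounts of 1 and 0.1, a replicate block, a length trend removed and libraries left out. In counts simulated on these 12219 genes, edgeR recovered 0% of 1.2-fold, 32% of 1.5-fold and 76% of 2-fold changes.

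The members and lists were chosen with earlier results of these data known. Genes named are all called members, the member of smallest p not called in each role, and those of highest and lowest WT FPKM. Up to 3 called genes of smallest adjusted p in each process of the wider list are also named. Further genes were named after their values were seen. The wider list's mitophagy genes enter its totals but are not reported here. Shared sequence is the share of 32-base words found in GENCODE M21 transcripts of other genes.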

Additional observations from a re-analysis of the deposited data

How the results depend on the processing

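Calls over all genes numbered 1790, and 1119 to 1741 when 1 library was left out, with 3186 when WT replicate 3 and KO replicate 2 were both left out. Of the 45 genes 3 were called, and 1 to 3 with 1 library left out, the single call being Tomm40 without WT replicate 1, WT replicate 2, KO replicate 1 or KO replicate 3. DESeq2 called 5, and the fit without both libraries 9. In the wider list 12 were called, 8 to 12 with 1 library left out and 23 without both. Same-numbered libraries correlated at -0.098, 0.23 and 0.18 in their deviations from the group means, so the numbers were not taken to pair samples, and WT replicates 1 and 3 correlated better with a KO library of another number. With a replicate block the calls numbered 2526 over all genes, 6 of the 45 genes and 19 of the wider list; the genes added among the 45 were Phb (adjusted p = 0.0457), Timm50 (0.0273) and Mcu (0.0321). Fis1 turned to -0.0563 with a gene length trend removed and to -0.0295 without both libraries, not called in either. Capns1 kept its direction and its call under all alternatives. The causes of these shifts were not tested. With 3 libraries a group, an exact two-sided permutation test cannot go below 0.1. In counts simulated with 50 genes changed at each fold size, fewer than were called here, edgeR recovered 32% of 1.5-fold changes.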

Other observations

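Transcripts of the transcription factors that act upstream of Asns and Gdf15 in the integrated stress response were not called. Of all tested genes 14.6% were called. The values of these factors were looked at after those of Asns and Gdf15. RNA alone was read, so protein level and activity of the factors were not tested. Atf4 had 92.0 FPKM in WT and 86.0 in KO (log2 fold change -0.12, edgeR adjusted p = 0.533), Ddit3 7.24 and 7.01 (-0.06, adjusted p = 0.820), and Atf5 27.4 and 31.7 (0.18, adjusted p = 0.383).

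Tomm40 lies beside Apoe, which ends 2 bases away in RefSeq (chromosome 7, 19696244 to 19701310, GRCm38.p6), a neighbour singled out after its values were seen. The 2 genes moved in opposite directions. Mean Apoe was 25958 CPM in WT and fell to 11258 in KO (log2 fold change -1.23, edgeR adjusted p = 5.63e-06), while Tomm40 rose from 55.7 to 88.1 CPM.

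Of the listed calcium uptake and channel genes, Mcu was the single one past an unadjusted p of 0.05, which 28.2% of all tested genes passed. The inhibitory paralogue Mcub had 31.2 FPKM in WT and 26.9 in KO (-0.23, edgeR adjusted p = 0.231), and the regulator Smdt1 135 and 149.9 (0.13, adjusted p = 0.461).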
